A study of Mus musculus with 12 samples.

Results

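Evi5l, Apbb1, Btbd3, Paqr9, Rbm43 and Zfp266 are 6 autosomal genes described here in cloned mouse morulae. On the brightest probe of each, signal was lower in all clones given a control siRNA than in any clone given an siRNA against Xist. The genes were chosen from earlier results of these same arrays, by their difference between the clone classes and between control clones and fertilised embryos. Return towards the level of fertilised embryos in the Xist siRNA clones was part of the choice as well. Differences between the classes are therefore given here as descriptions without a test. All of their probes were taken, 8 of the 41174 on the array, and 6 of the 19038 features tested across the array stand for them. Evi5l, Apbb1, Paqr9 and Rbm43 had 1 probe each, and Btbd3 and Zfp266 had 2 each. The 6 genes lie on chromosomes 8, 7, 2, 9, 2 and 9 in the order named, so none lies on the X chromosome.

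The 6 genes belong to no common pathway. Paqr9 codes for a membrane protein of the progestin and adipoQ receptor family, Evi5l for a protein with a TBC domain that acts as a GTPase-activating protein on Rab proteins, and Apbb1 (Fe65) for an adaptor that binds the cytoplasmic tail of the amyloid precursor protein. Btbd3 codes for a BTB domain protein best known for orienting dendrites in the cortex. Rbm43 codes for a protein with an RNA recognition motif, and Zfp266 for a KRAB zinc finger protein, a class of DNA-binding factors that recruit the corepressor Trim28. Xist is the long non-coding RNA that silences the X chromosome it is transcribed from, and mouse clones are known to express it from an X chromosome that should stay active.

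Each array carried amplified RNA of 1 whole morula of the (C57BL/6 x DBA/2) F1 strain, 12 embryos in all, grown for 72 h in KSOM medium. The IVF class comprised 4 untreated embryos from in vitro fertilisation, of which embryos 1 and 3 were male and embryos 2 and 4 female. The siCont and siXist classes comprised 4 male clones each, made from nuclei of Sertoli cells, the supporting cells of the testis, and injected 6 to 7 h after activation with control or Xist siRNA. Injection itself was therefore shared by both clone classes and absent from the IVF embryos. The 3 classes were hybridised on 3 different slides and scanned separately, so a slide effect and a class effect cannot be told apart. The labels number the embryos of a class and do not say whether they came from separate experiments, so p-values measure only the spread between these embryos. The 12 arrays limit the precision of every value.

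The scanner software flagged 50.7% to 61.4% of probes as well above background, siCont clone 3 being lowest. Without that array, siCont clones lay at 56.2% to 58.9%, IVF embryos at 55.9% to 61.0% and siXist clones at 57.7% to 61.4%. Of 9 morula markers on the array (such as Pou5f1 and Cdx2), 9 were detected in every IVF embryo, 7 to 9 in siCont clones and 8 to 9 in siXist clones. The summed level of 9 oocyte markers was 3.13 to 3.79 in IVF embryos, 4.46 to 5.17 in siCont clones and 3.43 to 4.53 in siXist clones on the log2 scale used below. Of 9 Sertoli markers 3 to 4, 3 to 4 and 3 to 6 were detected in the same order, with Amh and Inha in no embryo, and their summed levels overlapped (0.74 to 1.96, -1.01 to 2.24 and -1.12 to 1.73). Of 10 cumulus markers 3 to 4, 4 to 5 and 3 to 6 were detected, with Lhcgr in no embryo, at summed levels of 1.23 to 2.20, 2.03 to 3.15 and 1.77 to 2.90. The oocyte sums of siCont clones lay above those of all IVF embryos and overlapped with those of siXist clones, and Mos was not detected in siCont clones. The part of the oocyte and cumulus markers in the results was not tested. Xist itself lay at 4.56 to 5.65 in siCont clones, 1.36 to 2.45 in siXist clones, -4.92 and -7.04 (not detected) in male IVF embryos and 5.17 and 5.24 in female ones. In whole embryos, fewer cells that express a gene and less RNA per cell cannot be told apart.

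The sequence before the transcription start is shown for the 5 genes found in the RefSeq promoter table to show what lies beside each gene's start. Paqr9 was not matched. The table (GRCm38.p6) gave 9 promoters for the 5 genes, and the 250 bases before the most upstream start of each gene follow, 5′ to 3′ on the gene's strand. Capitals mark matches, on either strand, to any of 5 motifs. The GC box was searched for with the letters GGGCGG. The CCAAT box was searched for under the letters of its name, and the TATA box with the letters TATAAA. The E-box searched for reads CACGTG on both strands. For the core of ETS factor sites the letters were CCGGAA. No match overlapped that of another motif. They lie at chr8:4166317-4166566 on the plus strand (Evi5l), chr7:105581492-105581741 on the minus strand (Apbb1), chr2:138256334-138256583 on the plus strand (Btbd3), chr2:51935164-51935413 on the minus strand (Rbm43) and chr9:20521420-20521669 on the minus strand (Zfp266).
Evi5l: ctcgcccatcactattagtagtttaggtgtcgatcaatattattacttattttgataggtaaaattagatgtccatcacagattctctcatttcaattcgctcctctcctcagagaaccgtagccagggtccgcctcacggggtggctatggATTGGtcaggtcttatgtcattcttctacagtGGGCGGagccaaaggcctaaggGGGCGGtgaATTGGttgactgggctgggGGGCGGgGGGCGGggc
Apbb1: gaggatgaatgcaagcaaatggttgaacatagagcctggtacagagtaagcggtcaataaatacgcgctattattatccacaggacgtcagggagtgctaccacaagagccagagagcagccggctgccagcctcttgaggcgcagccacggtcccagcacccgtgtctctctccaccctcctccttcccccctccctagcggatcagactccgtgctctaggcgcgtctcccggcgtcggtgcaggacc
Btbd3: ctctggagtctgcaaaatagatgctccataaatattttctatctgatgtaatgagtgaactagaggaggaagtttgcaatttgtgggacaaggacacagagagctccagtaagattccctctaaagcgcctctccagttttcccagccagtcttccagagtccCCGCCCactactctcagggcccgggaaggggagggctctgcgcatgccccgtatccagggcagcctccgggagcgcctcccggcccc
Rbm43: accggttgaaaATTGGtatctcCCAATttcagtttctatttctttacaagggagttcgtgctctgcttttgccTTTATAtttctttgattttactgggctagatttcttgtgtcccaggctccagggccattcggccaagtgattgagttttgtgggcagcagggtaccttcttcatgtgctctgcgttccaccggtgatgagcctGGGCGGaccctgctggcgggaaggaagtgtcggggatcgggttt
Zfp266: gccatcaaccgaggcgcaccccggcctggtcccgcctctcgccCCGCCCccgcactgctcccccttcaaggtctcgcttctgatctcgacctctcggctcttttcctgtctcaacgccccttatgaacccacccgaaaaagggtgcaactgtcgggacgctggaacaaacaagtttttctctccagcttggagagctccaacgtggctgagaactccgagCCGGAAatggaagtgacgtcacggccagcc
A GC box was present in 4 of these 5 sequences, against 32.7% of the 32851 promoters of the table cut to the same length. Evi5l held 4 GC boxes, the nearest starting 9 bases before the start, and 2 CCAAT boxes. Rbm43 held 2 CCAAT boxes and a TATA box 177 bases before the start, and 2 of 5 sequences had a CCAAT box against 33.8% in the table. The ETS core of Zfp266 lay 30 bases before its start, 1 of 5 sequences against 12.03% in the table, and the TATA box of Rbm43 was likewise 1 of 5 against 12.4%. No E-box was found in the 5, against 6.02% in the table. Apbb1 held none of these letters in this window. The ratio of observed to expected CpG was 0.86 for Zfp266, 0.69 for Apbb1, 0.63 for Evi5l, 0.59 for Rbm43 and 0.42 for Btbd3, with a median of 0.37 in the table. The printed sequences are those of the most upstream starts, while the table's values cover all starts. Starts further downstream had ratios of 0.11 and 0.24 (Apbb1), 0.19 (Btbd3) and 0.81 (Rbm43). Over all 9 promoters, 6 held a GC box, 4 a CCAAT box, 2 an ETS core, 1 a TATA box and 1 an E-box. No motif was shared by all 5 printed sequences.

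Levels are given as log2 of the background-subtracted signal relative to the 75th percentile of the array, and embryos are listed in the order 1 to 4. The lowest level well above background ranged from -6.76 to -5.60 over the arrays, and values not well above background (called not detected below) have no order among themselves. Differences are those of a limma fit to all 12 arrays with their SE. That SE pools the spread within siCont clones, siXist clones and IVF embryos of each sex, undetected values included. It leaves out the difference between the sexes, so it can understate the spread of IVF embryos. Where a dim class had undetected embryos, the fold is given as a bound, in which each value of that class was taken as the higher of itself and the lowest signal well above background on its array.

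Paqr9 was bright in every siXist clone and dim in every siCont clone. It measured -2.15, -8.25, -2.43 and -0.34 in the IVF class, -7.46, -7.70, -7.84 and -8.19 in the siCont class and -1.20, -0.72, -1.64 and -1.31 in the siXist class. In signal units the siCont spots read 2.21 to 4.18 and the siXist spots 299 to 568. Paqr9 was thus well above background in 4 of 4 siXist clones and 0 of 4 siCont clones, and the clone classes did not overlap. Its mean level was at least 27.0-fold higher in siXist than in siCont clones (6.58 ± 1.28 as measured). Among IVF embryos the female embryo 2 was as dim as the siCont clones and the other 3 were bright, so IVF and siCont embryos overlapped. Against the siCont clones the IVF mean was at least 6.42-fold higher (the siCont minus IVF difference was -4.51 ± 1.28 as measured). With the sexes weighted equally, that bound was 1.63-fold without IVF embryo 4 and 25.3-fold without IVF embryo 2, with differences of -2.53 and -6.48. The female embryo that remained then counted as much as both male ones. The siXist minus IVF difference of 2.08 ± 1.28 was likewise 4.05 without IVF embryo 4 and 0.098 without IVF embryo 2. The 4 siXist clones had an SD of 0.38 (n = 4) and the IVF embryos one of 3.43 (n = 4).

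Evi5l was detected in all 4 IVF embryos and all 4 siXist clones. It measured -1.29, -0.97, -1.47 and -2.12 in the IVF class, -6.74, -7.75, -6.64 and -6.02 in the siCont class and -4.32, -1.02, -2.48 and -2.51 in the siXist class. All IVF embryos and siXist clones lay above all siCont clones. The IVF mean was at least 22.8-fold and the siXist mean at least 10.5-fold above that of the siCont clones (siCont minus IVF -5.32 ± 0.66, siXist minus siCont 4.20 ± 0.66 as measured). The siCont spots were dim rather than blank. All 4 carried the scanner's weaker flag for a signal significantly above background, at 4.03 to 13.9 signal units. The siXist minus IVF difference was -1.12 ± 0.66, and the ranges overlapped. It was -0.54 without siXist clone 1, the lowest of its class, and -1.64 without siXist clone 2.

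Apbb1 was detected in all siXist clones, at levels near the limit of detection. It measured -4.71, -3.14, -5.16 and -1.79 in the IVF class, -7.38, -7.34, -7.69 and -8.09 in the siCont class and -5.61, -4.87, -5.30 and -6.23 in the siXist class. Detection was 4 of 4, 0 of 4 and 4 of 4 in that order, but siXist clone 4 read only 9.88 signal units, and the lowest detected signal of its array stood at -6.60. The siXist mean was at least 1.39-fold above the siCont mean (2.12 ± 0.41 as measured), and with dim values raised to that limit on every array the difference was 0.47. The IVF mean was at least 4.84-fold above the siCont mean (siCont minus IVF -3.93 ± 0.41 as measured). The siXist minus IVF difference was -1.80 ± 0.41 over all IVF embryos and -0.57 over the male ones alone. The female embryos 2 and 4 were the brightest.

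Btbd3 had 2 probes, which differed in the siCont clone they detected. The brighter probe measured -2.01, -2.11, -0.68 and -3.40 in the IVF class, -8.35, -8.53, -7.86 and -3.23 in the siCont class and -0.42, -1.87, -0.02 and -0.17 in the siXist class. On it siCont clone 4 stood apart from the other siCont clones and lay within the IVF range, while all siXist clones were above all siCont clones. The siXist mean was at least 25.4-fold above the siCont mean, with 1 of 4 siCont clones detected (6.37 ± 1.10 as measured). The IVF mean was at least 9.43-fold above it (siCont minus IVF -4.94 ± 1.10 as measured).

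The other Btbd3 probe measured -7.24, -3.21, -3.77 and -0.98 in the IVF class, -3.21, -8.29, -7.02 and -8.09 in the siCont class and -5.15, -2.74, -8.93 and -5.45 in the siXist class. The detected siCont clone was clone 1 here and clone 4 on the brighter probe. On this probe siXist clone 3 and IVF embryo 1 were not detected, though both were bright on the other. The classes overlapped, and the siXist minus siCont difference was 1.09 ± 1.51. With the mean of both probes that difference was 3.73, and the siXist minus IVF difference turned from 1.43 ± 1.10 to -0.17.

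**Figure D1:**
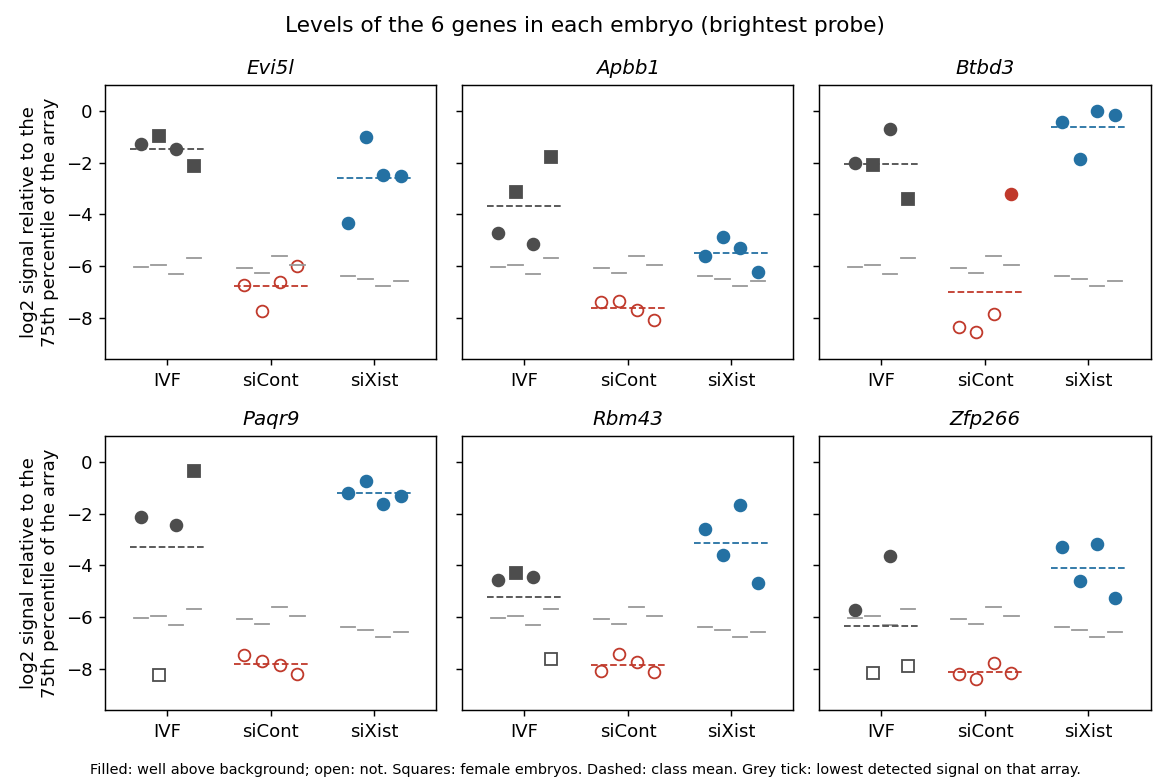
Log2 signal relative to the 75th percentile of the array (vertical axis) of the brightest probe of each gene, 1 point per embryo in replicate order within IVF, siCont and siXist. Filled points are well above background, squares are female embryos, dashed lines are class means (n = 4) and grey ticks are the lowest detected signal of each array. All siXist points are filled, and Btbd3 in siCont clone 4 is the only filled siCont point.

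Rbm43 measured -4.57, -4.28, -4.46 and -7.64 in the IVF class, -8.10, -7.42, -7.73 and -8.13 in the siCont class and -2.61, -3.59, -1.66 and -4.67 in the siXist class. It was detected in 3, 0 and 4 embryos in that order, and the female IVF embryo 4 was as dim as the siCont clones. The siXist mean was at least 7.15-fold above the siCont mean (4.71 ± 0.77 as measured), and the clone classes did not overlap. The IVF mean was at least 1.66-fold above the siCont mean (siCont minus IVF -2.61 ± 0.77 as measured). With the sexes weighted equally, the bound was 2.98-fold without IVF embryo 4, and none could be given without IVF embryo 2. The difference was -3.44 and -1.77 in these cases. In 3 of 4 siXist clones the level was above that of every IVF embryo, with siXist minus IVF at 2.10 ± 0.77 (1.26 without IVF embryo 4).

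Zfp266 went against the description of a gene bright in fertilised embryos. Its brighter probe measured -5.73, -8.17, -3.65 and -7.91 in the IVF class, -8.21, -8.39, -7.79 and -8.16 in the siCont class and -3.30, -4.62, -3.16 and -5.28 in the siXist class. It was detected in both male IVF embryos, in neither female one, in no siCont clone and in all siXist clones, so it passed the filter on dim probes through the siXist class alone and had to differ there. The siXist mean was at least 3.69-fold above the siCont mean (4.05 ± 0.57 as measured). No bound could be given for IVF over siCont embryos, since the IVF mean of -6.37 ± 2.12 (SD, n = 4) lay below the limit. The siCont minus IVF difference was -1.77 ± 0.57 as measured, and -3.45 against the male embryos alone. The siXist minus IVF difference was 2.27 ± 0.57, and 0.60 against the male embryos alone.

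The other Zfp266 probe was not well above background in any of the 12 embryos. Its values ran from -8.31 to -7.32 in IVF embryos, from -8.45 to -7.80 in siCont clones and from -9.02 to -8.61 in siXist clones, at 1.66 to 5.25 signal units, and give no fold. The higher level of Zfp266 in siXist clones therefore rested on 1 of 2 probes.

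**Figure D2:**
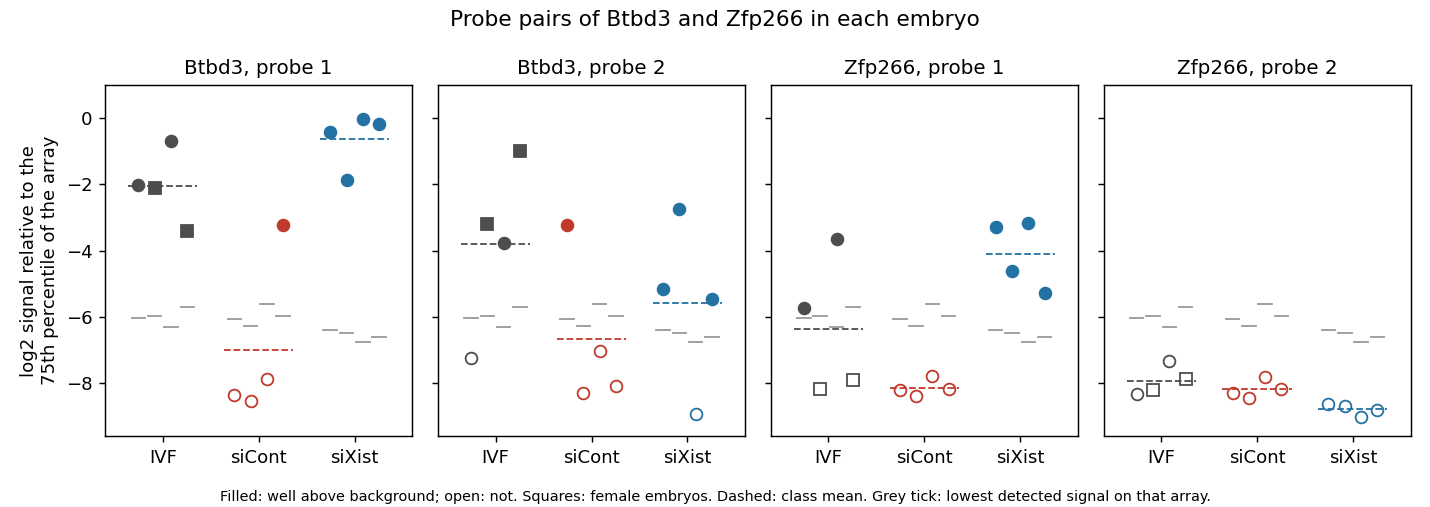
Log2 signal relative to the 75th percentile of the array (vertical axis) for the probe pairs of Btbd3 and Zfp266, 1 point per embryo, with symbols and lines as in the plot of levels by embryo. The detected siCont clone differs between the Btbd3 probes (clone 4 and clone 1), and every point of the second Zfp266 probe is open.

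Taken per embryo, the 6 genes on their brightest probes had a lower mean in each siCont clone than in all other embryos. They were chosen for being dim in siCont clones, so these values are description only. All 6 were detected in each of the 4 siXist clones and in the male IVF embryos 1 and 3, 4 in each of the female IVF embryos 2 and 4, 0 in siCont clones 1 to 3 and 1 in siCont clone 4. The mean over the 6 genes was -4.49 to -2.98 in IVF embryos, -7.86 to -6.97 in siCont clones and -3.36 to -2.38 in siXist clones. The median of all features ranged only from -1.04 to -0.66 over the 12 arrays. The lowest of these was siCont clone 3, the other siCont clones lying at -0.78 to -0.72.

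The siXist minus siCont difference had a median of 4.46 over the 6 genes (range 2.12 to 6.58), against -0.21 over all 19038 features. All 6 were higher in siXist clones with no overlap, as were 1.62% of all features. The siCont minus IVF difference had a median of -4.22 (range -5.32 to -1.77), against -0.04 over all features. Evi5l and Apbb1, 2 of the 6, were lower in siCont clones with no overlap, as were 4.79% of all features. These values chose the genes and are read no further. In none of the 6 did siXist clones and IVF embryos fail to overlap, while 3.48% of features were higher and 9.58% lower in siXist clones without overlap. Likeness of siXist clones to IVF embryos was part of the choice too, so that overlap is likewise description. The IVF ranges of Paqr9, Rbm43 and Zfp266 also included undetected embryos. The siXist means were below the IVF means for Evi5l and Apbb1 and above them for Btbd3, Paqr9, Rbm43 and Zfp266, with a median difference of 1.75. That median was 0.66 against the male IVF embryos alone and 0.92 without the female IVF embryo 2. These 3 comparisons share their arrays.

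The detection pattern of the 6 genes was counted over the 18392 features with a value on every array. Undetected in all siCont clones and detected in all siXist clones were 55 features (0.299%), with 5 of the 6 genes among them. With at least 3 of 4 IVF embryos also detected there were 20 (0.109%, 4 of the 6 genes), and with all IVF embryos 8 (0.0435%, namely Evi5l, Apbb1 and 6 others). Exchanging the clone classes gave 12 features (0.0652%), and 0 of them (0%) were detected in all IVF embryos. The looser form, at least 3 of 4 IVF embryos, at most 1 of 4 siCont clones and at least 3 of 4 siXist clones, held for 325 features (1.77%, 5 of the 6 genes), and for 87 (0.473%) with the clone classes exchanged. These patterns chose the genes and nothing is read from the members' counts.

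**Figure D3:**
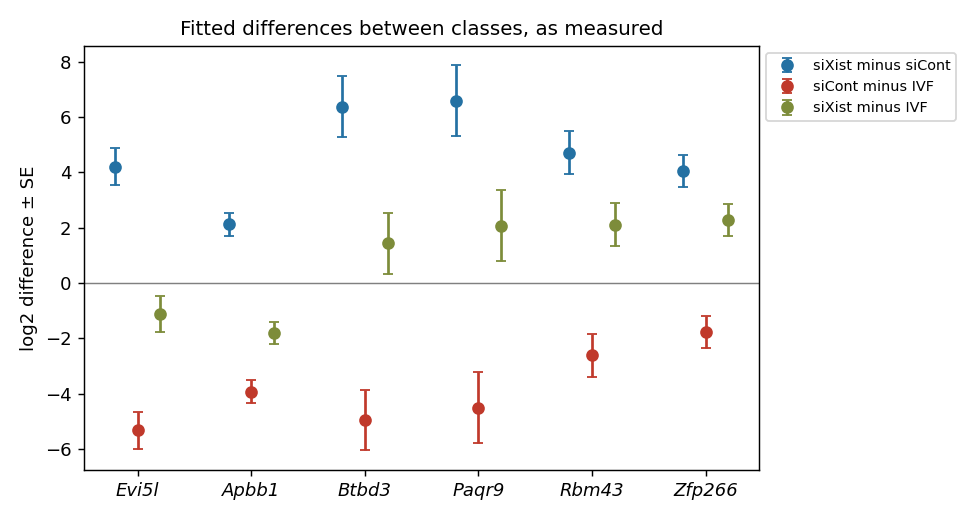
Fitted log2 differences (vertical axis) with their SE for the 6 genes, as measured, between siXist and siCont clones, siCont clones and IVF embryos, and siXist clones and IVF embryos (4 embryos a class). The siXist minus siCont values are positive for all 6 genes and the siCont minus IVF values negative, while siXist minus IVF runs from -1.80 for Apbb1 to 2.27 for Zfp266.

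Female and male IVF embryos were compared because this difference had no part in choosing the genes and lay within 1 slide. None of the 6 genes was called by limma after Benjamini-Hochberg adjustment over all features (0 of 6, where 0.0158% of all features were), and 2 of 6 had an unadjusted p under 0.05, as had 1.53% of all features. The sexes did not overlap for 1 gene that was higher in females (16.9% of all features were) and 2 that were lower (11.7% were). Btbd3 was among the lower ones on its brighter probe (-1.41 ± 1.55). Its other probe was higher in females, also without overlap (3.41 ± 2.14), so that count depended on the probe. Apbb1 was higher in both female embryos (female minus male 2.47 ± 0.58, limma adjusted p = 0.9998). Zfp266 was lower in both, where it was not detected (-3.35 ± 0.81, limma adjusted p = 0.9998). Paqr9 and Rbm43 were each missing in 1 female embryo, embryo 2 and embryo 4. Without female embryo 4, Paqr9 differed by -5.96 (limma adjusted p = 0.00661), and without female embryo 2 by 1.95. In each of these fits the female class was 1 embryo, assumed to vary like the other classes. The value for Paqr9 thus depended on which female embryo was kept. Of the 24 values of the 6 genes in IVF embryos, the 4 not detected were all in female embryos, which had 55.9% and 56.1% of all probes detected against 57.3% and 61.0% in male embryos.

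The nearest tested gene on each side of each of the 6 along its chromosome was examined, since these 12 neighbours were not used in the choice. Of these, 0 were called between siXist and siCont clones by limma, where 0.0105% of all features were. Before adjustment 1 was higher and 0 lower (p under 0.05), against 4.39% and 9.5% of all features. That gene was Lrrc8e, a subunit of volume-regulated anion channels that lies next to Evi5l. Its class means were -1.43 (IVF), -2.66 (siCont) and 0.47 (siXist), and it was detected in all 12 embryos (siXist minus siCont 3.13 ± 1.20, limma adjusted p = 0.319). Between siCont clones and IVF embryos 0 neighbours were called, where 0.415% of all features were, and 1 was higher and 2 lower without adjustment, against 6.84% and 6.73% of all features. The smallest p belonged to Smpd1, the acid sphingomyelinase gene next to Apbb1 (-1.52 ± 0.46, limma adjusted p = 0.217). Pcolce2, next to Paqr9, had class means of 0.43 (IVF), -3.67 (siCont) and -2.30 (siXist) and did not pass the test (siCont minus IVF -4.11 ± 1.73, limma adjusted p = 0.336). Pcolce2 was detected in 3 of 4 siCont clones and in all IVF embryos. The zinc finger genes beside Zfp266 differed between siXist and siCont clones by -0.28 ± 0.33 for Zfp426 and 0.47 ± 0.68 for Zfp846. Over the 12 neighbours the median difference was 0.24 between the clone classes, against -0.21 for all features, and -0.69 between siCont clones and IVF embryos, against -0.04.

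Related genes, by family, domain class or known partnership with the 6, were listed as well. For Rbm43 these were other RNA-binding motif genes, and for Zfp266 other KRAB zinc finger genes and Trim28. Of the related genes, 51 of 54 could be tested (Zfp426 and Zfp846 are also among the neighbours). Between the clone classes 0 were called by limma (0.0105% of all features), while 2 were higher and 4 lower before adjustment (p under 0.05, against 4.39% and 9.5% of all features), and their median of -0.22 stood beside -0.21 for all features. The smallest p belonged to Cul3, the scaffold of ubiquitin ligases that BTB proteins join (-0.94 ± 0.33, limma adjusted p = 0.305), Zfp560 (-4.89 ± 1.90, 0.320) and Apbb2, a paralogue of Apbb1 (1.44 ± 0.59, 0.330). App, the amyloid precursor protein gene whose product Apbb1 binds, differed by 2.24 ± 0.94 (limma adjusted p = 0.340) and was the other gene higher before adjustment. The other 2 lower were Paqr6, of the family of Paqr9 (-0.72 ± 0.30, 0.342), and Rbx1, the RING subunit of Cul3 ligases (-0.89 ± 0.39, 0.357). Zfp560 was detected in 3 of 4 siCont clones and only 1 of 4 siXist clones. App was detected in 3 of 4 siCont clones and 4 of 4 siXist clones. The differences of Zfp560 and App thus include undetected values and are not bounds. Between siCont clones and IVF embryos 0 were called (0.415% of all features), with 7 higher and 1 lower without adjustment (6.84% and 6.73% of all features) and a median of 0.14 against -0.04. The smallest p there belonged to Adipor2, an adiponectin receptor of the Paqr family (1.79 ± 0.47, limma adjusted p = 0.168), Aplp1, a relative of App (1.48 ± 0.41, 0.176), and Btbd2, a paralogue of Btbd3 (1.82 ± 0.58, 0.233). Btbd2 was called with siCont clone 1 left out (2.45, limma adjusted p = 0.0352). Aplp1 was detected in only 2 of 4 IVF embryos and in 4 of 4 siCont clones.

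**Figure D4:**
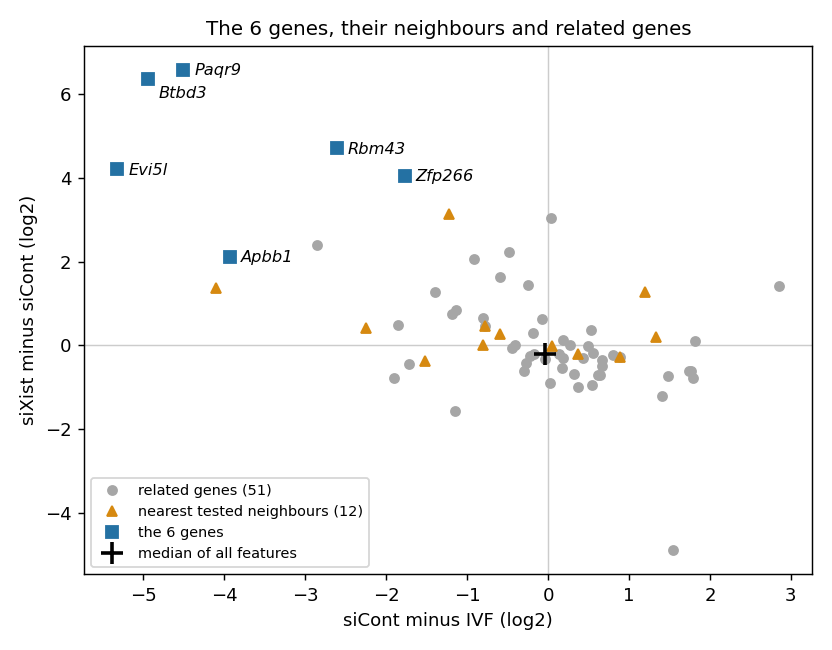
The siCont minus IVF difference (horizontal axis) against the siXist minus siCont difference (vertical axis), both in log2, for the 6 genes, their 12 nearest tested neighbours and 51 related genes, with a cross at the median of all features (-0.04, -0.21). Both axes use the siCont clones, so points tend to the diagonal from upper left to lower right. The 6 genes were chosen for their place at the upper left, and no neighbour or related gene was called on either axis.

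The 6 profiles differed among themselves. Each was centred on its own mean over the 12 embryos and set against the mean profile of the other 5, with the root mean square difference in log2 as the measure. It was smallest for Rbm43 (1.40), Evi5l (1.42) and Zfp266 (1.48) and larger for Btbd3 (1.73), Apbb1 (1.98) and Paqr9 (2.13). The closest pair was Rbm43 and Zfp266 at 1.11, and the pair furthest apart was Apbb1 and Paqr9 at 2.73. Among other features without a symbol the profiles nearest to the mean of the 6 were those of the cDNA features AK046698 (0.99), AK014190 (1.05), AK040942 (1.13), AK084615 (1.17) and AK018586 (1.21). Among other genes with a symbol they were 4931428F04Rik (1.14), Syp (1.16), 1700049L16Rik (1.31), C2cd4a (1.33) and Tmem161a (1.34). By distance to that mean over all features, Rbm43 ranked 6, Evi5l 8, Zfp266 11, Btbd3 44, Apbb1 226 and Paqr9 545. Many other features thus lay nearer to it than Apbb1 and Paqr9, though each of the 6 had contributed to the mean. Syp, which codes for the synaptic vesicle protein synaptophysin, lies on the X chromosome and had class means of -3.43 (IVF), -6.01 (siCont) and -3.88 (siXist). C2cd4a differed from the 6 in being detected in all 12 embryos, with class means of 1.06, -2.47 and 0.28 in the same order.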

How the data were processed

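RNA of single morulae was hybridised to single-colour Agilent arrays (Cy3) after extraction with TRIzol and amplification to aminoallyl RNA, per the labels' protocols. Per the file headers, intensity was extracted with Agilent Feature Extraction 10.5.1.1 on a grid built on mm9, background-subtracted and detrended within each array. The deposited value table holds log2 values that equal the log2 signal plus a constant per array minus each probe's median, and the basis of these constants stays unknown. In replicate order, the medians of its columns were 0.56, -0.0069, 0.75 and 0.32 (IVF), -0.048, -0.72, -1.62 and -0.12 (siCont) and 0.015, 0.54, -0.18 and -0.22 (siXist).

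Values were log2 processed signal minus the 75th percentile over non-control probes. Outlier spots (104 to 515 of 43379 per array) were left out, and 0 were saturated. Probes well above background on at least 3 of 4 arrays of any class were kept (24840), and a gene was represented by its brightest kept probe. Accessions matched to RefSeq (GRCm38.p6) named 65.3% of probes. All features were fitted in limma 3.58.1 (R 4.3.3) with a mean per class and sex, eBayes and Benjamini-Hochberg adjustment at 0.05, in a script tested on simulated data. IVF contrasts weight the sexes equally. P-values measure the spread between these embryos.

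The text names the 6 genes on all probes, their nearest tested neighbours, up to 3 related genes with the smallest p per comparison (App, Paqr6 and Rbx1 were added after their values were seen), and the 5 features with and 5 without a symbol whose profiles were most alike. Genes and lists were chosen with earlier results of these data known. Alternatives were the authors' table, quantile normalisation with and without normexp (offset 50, on median signals), a floor under dim values, no filter, a filter of 6 arrays, the mean of probes, only the groups compared, the replicate number as a block, each array left out and, added after seeing the data, male IVF embryos alone. Slide could not be a block.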

Additional observations from a re-analysis of the deposited data

Results flagged for a closer look

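In 24 sets of 4 embryos (8 probes in 3 classes), 2 values lay far from the other 3 of their set by Dixon's ratio, and chance flags about 1 in 20 sets. The brighter Btbd3 probe read -3.23 in siCont clone 4, against -8.53 to -7.86 in the other siCont clones (ratio 0.87). Without that clone the siXist minus siCont difference of Btbd3 was 7.63. Rbm43 read -7.64 in IVF embryo 4, a female, against -4.57 to -4.28 in the other IVF embryos (ratio 0.91). Without that embryo the siCont minus IVF difference of Rbm43 was -3.44.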

How the results depend on the processing

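The siXist minus siCont and siCont minus IVF differences of the 6 genes kept their direction under every alternative run (126 and 132 values). Those directions had chosen the genes on the same arrays, so their constancy is description only. Many of the values also repeat the main ones. Leaving out an array of a class not compared, the replicate block and the other filters left these differences as they were. So did fitting only the groups compared. The Zfp266 probe that was detected in no embryo entered none of these runs. The size of the differences moved, and the cause was not tested. The median siXist minus siCont difference of 4.46 was 1.38 after normexp with quantile normalisation, 3.12 with dim values at the floor and 5.59 in the authors' table, and 4.20 to 4.83 with any 1 array left out. The median siCont minus IVF difference of -4.22 was -1.35, -2.76 and -5.31 under the same 3, and -4.44 to -3.52 with 1 array left out (-3.52 without IVF embryo 4). The median siXist minus IVF difference of 1.75 was 0.65 after normexp, 1.30 at the floor, 0.95 with the mean of probes, 0.66 against male IVF embryos alone and 0.92 to 1.88 with 1 array left out (0.92 without IVF embryo 2, 1.19 without IVF embryo 4). The median of all features for siXist minus siCont was -0.21 here and 0.93 in the authors' table. Members called between female and male IVF embryos were 0 to 1 with 1 array left out (Paqr9 without IVF embryo 4), and related genes called between siCont clones and IVF embryos from 0 to 1 (Btbd2 without siCont clone 1). Neighbour genes called were 0 in every alternative run. Directions turned for Btbd3 with the mean of probes (female minus male 1.00, siXist minus IVF -0.17). With 1 array left out, the female minus male difference ranged from -0.74 to 0.41 for Evi5l, from -3.12 to 0.24 for Rbm43 (both highest without IVF embryo 4) and from -5.96 to 1.95 for Paqr9 (highest without IVF embryo 2). Same-numbered embryos did not deviate together (correlations from -0.15 to 0.06). Whether they shared an experiment cannot be told from these values. Each class held 1 embryo of every replicate number, so the replicate block could not change the medians of 4.46, -4.22 and 1.75. With the block, calls over all features went from 79 to 12 between siCont clones and IVF embryos. They went from 110 to 13 between siXist clones and IVF embryos and from 2 to 0 between the clone classes.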

Other observations

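The 6 features besides Evi5l and Apbb1 that were detected in all IVF embryos, no siCont clone and all siXist clones were Cnnm3, a member of the CNNM family of magnesium transport mediators, and the cDNA features AK014190, AK035400, AK036998, AK046698 and AK051655, all named after their values were seen. The class means of Cnnm3 were -3.01 (IVF), -7.66 (siCont) and -3.16 (siXist). Of the 325 features with the looser pattern 36.9% had a gene symbol, against 59.8% of the 87 with the clone classes exchanged and 71.1% of all features tested. The share of detected probes was lowest in siCont clone 3, and its part in these counts was not tested.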
